A study of Mus musculus with 45 samples.

Results

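The niche growth factors and receptors were described as 9 genes: the ligands Vegfa, Fgf1, Fgf2 and Igf1 and the receptors Fgfr1, Fgfr2, Fgfr3, Egfr and Igf1r. They were taken by symbol and not by a cut on any measured value, although earlier results of these data were known when they were chosen. All 9 were present among the 49922 genes with a single symbol in the unfiltered values of both experiments. The question was at what level neural stem cells (NSCs) and intermediate progenitor cells (IPCs) of the adult mouse dentate gyrus (DG) carry the transcripts of these growth signals, how that compares with the whole DG around them, and whether the levels move 4 h after a brain injury.

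The series holds 45 sequencing runs of mRNA from C57Bl6J mice aged 6 to 9 weeks. Untreated NSCs and untreated IPCs came from the same 3 mice, with 3 technical replicates per mouse and population (9 libraries each), and untreated whole DG came from 3 other mice (1 library each). In the injury experiment, NSCs of 3 mice after lateral fluid percussion injury (LFPI) stood against NSCs of 2 sham mice, IPCs of the same 3 LFPI mice against IPCs of 3 sham mice, and whole DG of 3 LFPI mice against whole DG of 3 sham mice, with 1 library per mouse and population and all tissue taken 4 h after the procedure from the side of the injury. LFPI delivers a brief pressure pulse to the exposed dura and is a model of traumatic brain injury, and sham mice had the surgery without the pulse. NSCs were sorted as Nestin-GFP+ GLAST+ and IPCs as Nestin-GFP+ GLAST- cells after removal of cells carrying O1, O4, CD31, CD45 or CD11b. The Nestin-GFP transgene is also active in some endothelial and oligodendroglial cells, and the sorted populations rest on these gates. The labels call all mice Nestin-GFP, whereas the study describes the untreated whole DG mice as wild type. Sorted cells were lysed in batches of 300, a part of each lysate was amplified with SMART-Seq HT and Nextera XT kits, and whole DG RNA went through a directional NEBNext kit, so population, kit and input amount cannot be told apart in any comparison of sorted cells with whole DG.

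VEGF-A is secreted by glia, neurons and progenitors, acts on receptors of endothelial cells and is induced by low oxygen. FGF-1 and FGF-2 bind the receptor tyrosine kinases FGFR1, FGFR2 and FGFR3, and IGF-1, made by microglia, neurons and vessels, binds IGF1R. EGF receptor is switched on as quiescent stem cells become activated, and FGF-2 and EGF are the mitogens with which NSCs are grown in culture, while FGFR3 is also a known astrocyte gene.

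The receptors Fgfr2 and Fgfr3 gave the largest differences between experiments, and their promoters are shown for that reason. RefSeq promoter windows of 300 bases matched 7 of the 9 genes and gave 9 promoters on GRCm38.p6. The windows do not all lie at the start of the gene models given below, and a window of Vegfa lies well within its gene. They were searched for the GC box GGGCGG, which Sp1-type factors bind, and for the hypoxia response core ACGTG, each on both strands. Capitals mark the GC box or its reverse complement, and matches may overlap.

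Fgfr2 (chr7:130266759-130267058, minus strand): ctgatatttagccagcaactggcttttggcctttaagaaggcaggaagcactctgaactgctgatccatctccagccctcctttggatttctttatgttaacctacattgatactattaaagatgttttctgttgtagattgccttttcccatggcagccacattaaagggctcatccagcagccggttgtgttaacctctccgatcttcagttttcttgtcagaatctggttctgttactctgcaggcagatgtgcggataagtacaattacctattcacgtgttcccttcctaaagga
Fgfr3 (chr5:33721474-33721773, plus strand): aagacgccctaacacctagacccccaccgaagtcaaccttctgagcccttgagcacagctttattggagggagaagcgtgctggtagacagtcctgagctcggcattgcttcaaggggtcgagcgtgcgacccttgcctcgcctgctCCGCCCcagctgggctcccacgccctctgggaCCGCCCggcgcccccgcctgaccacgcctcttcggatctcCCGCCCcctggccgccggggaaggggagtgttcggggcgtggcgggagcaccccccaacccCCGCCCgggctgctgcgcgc
Fgfr3 (chr5:33722056-33722355, plus strand): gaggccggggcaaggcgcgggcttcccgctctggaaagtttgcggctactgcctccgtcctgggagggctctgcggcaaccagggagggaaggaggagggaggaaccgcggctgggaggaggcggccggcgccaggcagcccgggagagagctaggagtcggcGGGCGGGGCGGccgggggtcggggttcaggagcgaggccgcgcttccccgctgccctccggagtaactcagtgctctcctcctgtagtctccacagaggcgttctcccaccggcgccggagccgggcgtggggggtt

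The upstream Fgfr3 window held 4 GC boxes and the downstream one 2, which overlap each other, while the Fgfr2 window held none. Of 32851 mouse promoters 35.7% held at least 1 GC box. The other windows held 2 GC boxes for Igf1r, 1 for Egfr, 1 for Fgf2, none for Igf1, and 2 and 1 for the pair of Vegfa windows. ACGTG was present in 19.6% of all promoters, in 1 window of Vegfa (chr17:46025114-46025413) and in Fgfr2, where 1 site reads the same on both strands and was counted 2 times. Promoters of Fgf1 and Fgfr1 are not shown.

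Values are normalized counts, that is, reads per gene divided by a size factor of the library. The libraries held 9292264 to 21598519 reads in genes. CLEAR is the study's filter on expression level. It removes transcripts below the count at which most of them begin to be read mainly at their ends. 1 library stood apart before any result: technical replicate 2 of IPC mouse 2 had 6110 genes that passed CLEAR, against a median of 10300 in the 9 untreated IPC libraries. In the injury experiment sham mouse 4 often had the highest value of its group, and values without one or the other are given where a call rests on it or the value moves widely. The sorted populations carried markers of other cells. All 10 endothelial markers were past the threshold as higher in untreated NSCs than in whole DG, as were 7 of 8 pericyte and smooth muscle markers, while 3 of 9 radial glia-like markers were higher and 1 lower. The summed endothelial markers reached 79640 to 100562 normalized counts in untreated NSCs and 22729 to 48653 in untreated IPCs, against 1482 to 2168 in whole DG, and the 8 mature neuron markers 2555 to 4969 in untreated sorted cells against 164052 to 186726 in whole DG. Each endothelial, pericyte, microglia and astrocyte marker was above 0 in at least 1 mouse of every group. The part of such cells in the values of the 9 genes was not tested. In bulk libraries fewer cells of a type and less RNA per cell cannot be told apart.

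Groups were compared with limma on log2(normalized count + 1), with the technical replicates of a mouse averaged so that the mouse is the replicate. Genes passed, here also called past the threshold, when the p adjusted by Benjamini-Hochberg over all genes with a mean of at least 10 was under 0.05 and the log2 fold change was 1 or more, up or down. On this scale the change of low genes is understated.

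Untreated NSCs carried less Fgf1, Fgfr1, Fgfr2 and Fgfr3 mRNA than untreated whole DG and more Igf1r. Untreated IPCs carried less Vegfa, Fgf1, Igf1, Fgfr2 and Fgfr3 and more Igf1r. The deepest differences were those of Fgfr3, 39.9-fold lower in NSCs and 38.0-fold lower in IPCs, whereas Egfr and Fgf2 did not pass the test in either population. Thus 5 of 9 members passed between NSCs and whole DG (1 higher, 4 lower), where 43.1% of all 17638 genes tested did so (12.4% higher, 30.7% lower). Between IPCs and whole DG 6 of 9 passed (1 higher, 5 lower), where 42.5% of all genes did (11.4% higher, 31.1% lower). The 5 include Igf1, which was at 0 in all IPC libraries, so its direction is fixed by the minimum mean. With the background this high, the counts alone are not read as particular to these genes. The median log2 fold change of the members was -2.06 in NSCs and -2.07 in IPCs, beside -0.64 and -0.68 over all genes tested. With every library rescaled to the same total the median of all genes moved to 0.08 in NSCs and 0.03 in IPCs, and the calls over all genes to 4163 higher and 3586 lower in NSCs, in place of 2184 and 5413, and to 4035 and 3557 in IPCs, in place of 2007 and 5490. The fall of Vegfa in IPCs was then lost, and the other 10 member calls stood.

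Among the ligands, Vegfa (chr17:46016993-46032369, minus strand) had 33.1, 253 and 139 normalized counts in NSCs of mice 1, 2 and 3 and 70.2, 138 and 52.6 in IPCs, against 439, 278 and 319 in whole DG. Each mouse average of sorted cells lay below each whole DG library. On the log2 scale Vegfa differed from whole DG by -1.67 (SE 0.715, limma adjusted p = 0.0816) in NSCs and -2.07 (SE 0.715, adjusted p = 0.0399) in IPCs. The IPC call was lost when mouse 3, 4, 5 or 6 was left out (lowest adjusted p of these 0.0774), with edgeR (adjusted p = 0.0861) and without a minimum mean (adjusted p = 0.058). Without technical replicate 2 of IPC mouse 2, which held 413 normalized counts against 0 in the other replicates of that mouse, the IPC value was -4.44 (adjusted p = 0.0369). In NSCs Vegfa passed only without mouse 2, at -2.30.

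Fgf1, on chromosome 18 and encoding a broadly binding FGF that lacks a signal peptide, had 189, 123 and 181 normalized counts in NSCs and 20.6, 57.5 and 150.3 in IPCs, against 1392, 1201 and 1308 in whole DG. No sorted mouse came near the whole DG range. The difference was 8.01-fold in NSCs (log2 -3.00, SE 0.609, limma adjusted p = 0.00351) and 22.5-fold in IPCs (log2 -4.49, SE 0.609, adjusted p = 0.000427), both lower. Fgf2, which encodes the NSC mitogen FGF-2 (chr3:37348346-37410108, plus strand), had 30.5, 34.9 and 129 normalized counts in NSCs and 47.1, 41.6 and 44.6 in IPCs, against 87.1, 117 and 112 in whole DG. IPCs lay below whole DG in every mouse, and NSC mouse 3 lay above it. The fold changes on the log2 scale, -0.999 (SE 0.591, limma adjusted p = 0.19) in NSCs and -1.22 (adjusted p = 0.119) in IPCs, did not pass. Fgf2 shares 640 exonic bases, 9.44% of its length, with Nudt6 on the opposite strand, and reads were counted without regard to strand, so reads of the pair cannot be told apart.

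Igf1 (chr10:87858265-87937042, plus strand) had 0, 68.0 and 13.8 normalized counts in NSCs and 0 in all 9 IPC libraries, against 78.9, 84.3 and 91.1 in whole DG. The ligand was thus not detected in IPCs, and in NSCs it was listed at 0 in 5 of 9 libraries. Taking 3 reads over the group as the floor for a count of 0, which is 0.271 normalized counts and covers counting error only, Igf1 was at least 313-fold lower in IPCs than in whole DG. The fitted log2 fold change of -6.42 (SE 1.31, limma adjusted p = 0.00383) passed but depends on the pseudocount. With IPCs at 0 throughout, its direction is fixed by the minimum mean, and this call is not read as a result. In NSCs the log2 fold change was -3.09 (SE 1.31, adjusted p = 0.0795), which passed with a pseudocount of 10 (log2 -1.84, adjusted p = 0.0345) and without mouse 2 (log2 -4.48, adjusted p = 0.0151). Without mouse 2 Igf1 reached the minimum mean only through whole DG, so the direction of that call is fixed as well. NSC mouse 2, the one with the most Igf1, also had the highest sum over 9 microglia markers, 10698 normalized counts against 5158 and 6700 (mice 1 and 3), and the IPC sums were 572 to 2528 against 10086 to 10906 in whole DG. The part of those cells in the Igf1 values was not tested.

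Among the receptors, Fgfr1 (chr8:25513654-25575718, plus strand), the FGF receptor with the broadest neural expression, had 665, 832 and 427 normalized counts in NSCs and 1157, 1964 and 1013 in IPCs, against 2485, 2379 and 2912 in whole DG. The 3 groups did not overlap, with NSCs lowest. It was 4.17-fold lower in NSCs than in whole DG (log2 -2.06, SE 0.302, limma adjusted p = 0.000592), and in IPCs it had a log2 fold change of -0.97 (adjusted p = 0.027), just short of the fold threshold. Without technical replicate 2 of IPC mouse 2 the IPC value was -1.30 (adjusted p = 0.00176) and passed.

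Fgfr2 (chr7:130162451-133123350, minus strand, a gene model that spans several neighbours) had 67.8, 68.1 and 113 normalized counts in NSCs and 50.9, 32.8 and 43.6 in IPCs, against 750.1, 744 and 655 in whole DG. Fgfr3 (chr5:33721674-33737068, plus strand) had 15.0, 112 and 95.7 normalized counts in NSCs and 31.2, 89.5 and 69.0 in IPCs, against 2441, 1893 and 2414 in whole DG. For both receptors every sorted mouse lay several fold below the lowest whole DG library. Fgfr2 was 8.78-fold lower in NSCs (log2 -3.13, SE 0.35, limma adjusted p = 0.000124) and 16.7-fold lower in IPCs (log2 -4.06, adjusted p = 3.48e-05), and Fgfr3 had log2 fold changes of -5.32 (SE 0.732, adjusted p = 0.000415) and -5.25 (adjusted p = 0.000499). Leaving out any mouse kept Fgfr3 between -5.83 and -4.42 in NSCs and between -5.56 and -4.81 in IPCs. Fgfr3 shares 998 exonic bases, 13.9% of its length, with the antisense model G630022F23Rik, and Fgfr2 314 with Ctbp2.

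Egfr (chr11:16752203-16918158, plus strand) had 113, 118 and 187 normalized counts in NSCs and 79.2, 39.9 and 243 in IPCs, against 183, 121 and 166 in whole DG. The 3 groups overlapped. The log2 fold change was -0.18 in NSCs (SE 0.621, limma adjusted p = 0.826) and -0.74 in IPCs (adjusted p = 0.347), and the sign in NSCs turned with rescaling (0.52), edgeR (0.19) and DESeq2 (0.06). Igf1r (chr7:67952827-68233668, plus strand), the receptor of IGF-1, had 729.6, 715 and 704 normalized counts in NSCs and 737, 753 and 341 in IPCs, against 319, 138 and 299 in whole DG. Every sorted mouse exceeded every whole DG library. It was 3.02-fold higher in NSCs (log2 1.60, SE 0.399, limma adjusted p = 0.00988) and 2.42-fold higher in IPCs (log2 1.28, adjusted p = 0.027). The NSC call held without any 1 mouse, and the IPC call was lost without mouse 1, 2 or 5 and without technical replicate 2 of IPC mouse 2 (log2 0.85, adjusted p = 0.112).

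**Figure D1:**
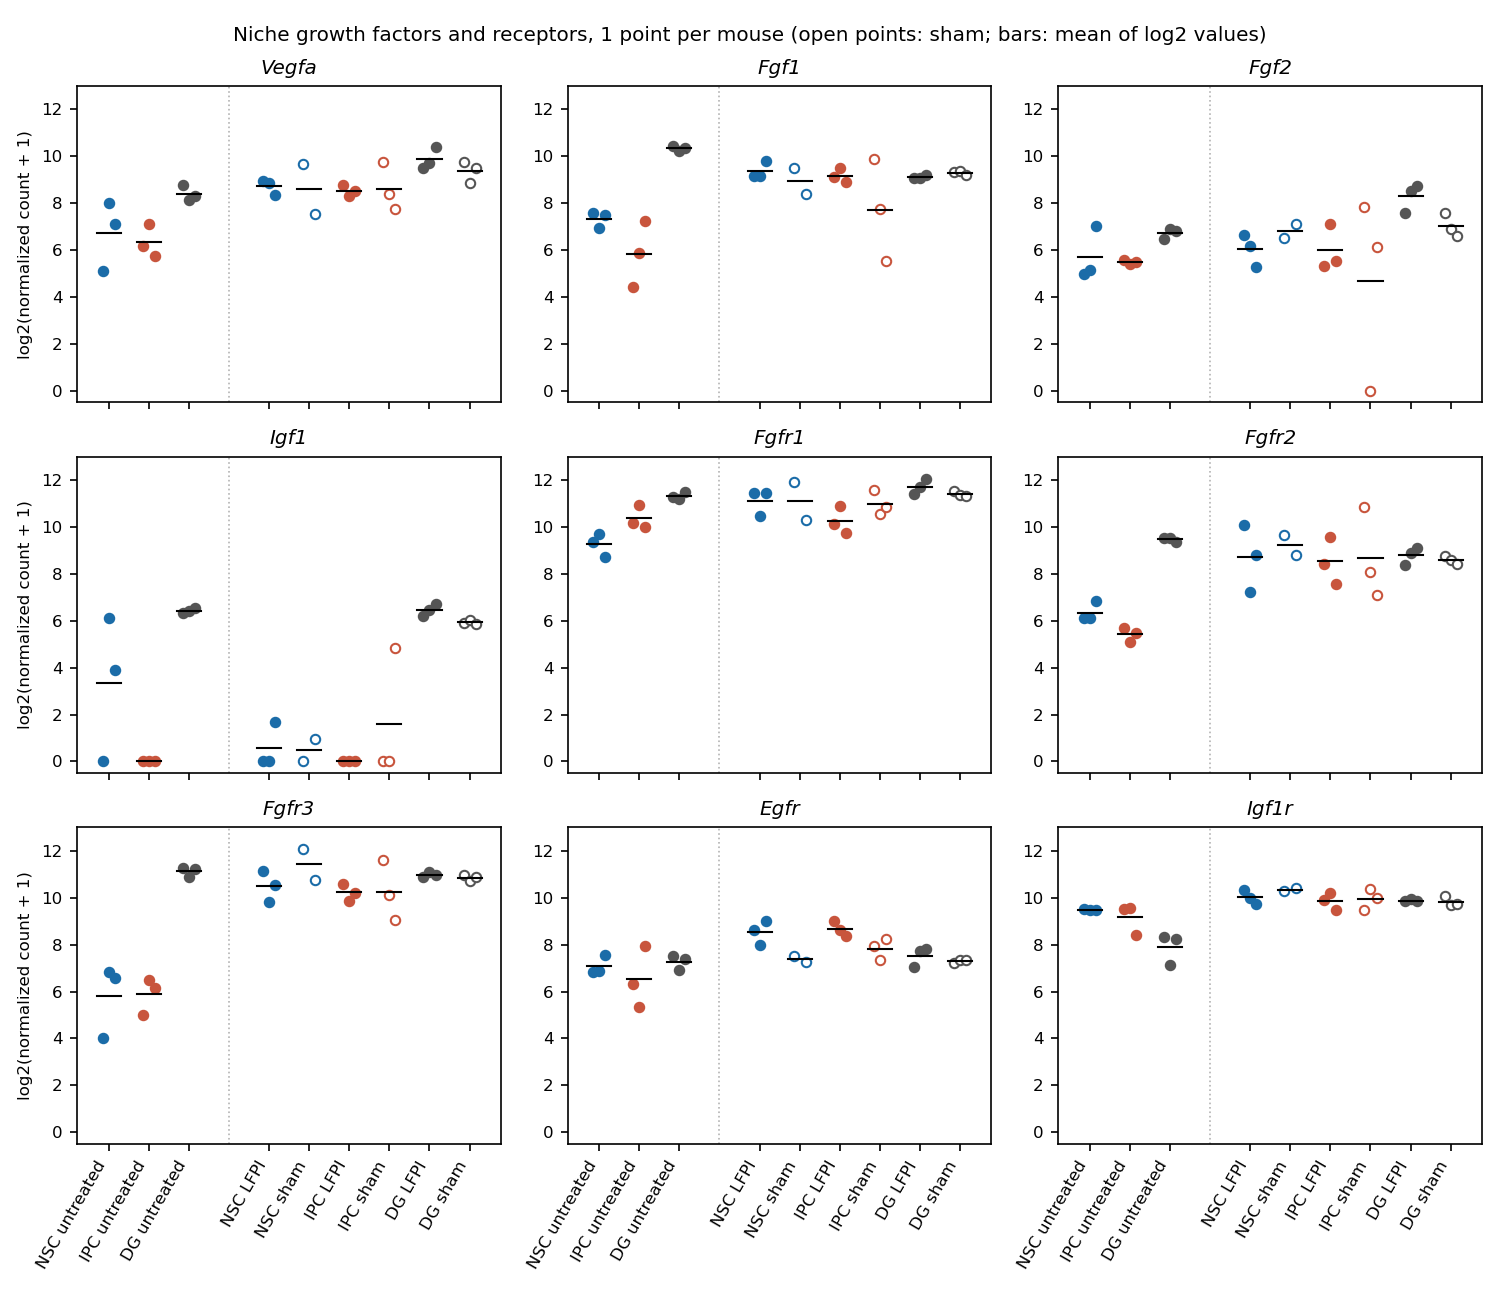
Level of each of the 9 genes on the log2(normalized count + 1) scale, 1 point per mouse, in untreated mice left of the dotted line and in the LFPI experiment right of it (open points sham, bars the mean of the log2 values); the experiments were normalized separately. Fgfr2 and Fgfr3 lie far below whole DG in untreated sorted cells and overlap with it in sorted cells of the LFPI experiment, while Igf1 is at 0 in IPCs of both except in 1 sham mouse (27.9 normalized counts).

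Between untreated NSCs and IPCs none of the 9 genes passed in limma, where 1.63% of all genes tested did (1.15% higher, 0.482% lower). At an unadjusted p under 0.05 there were 4: Fgf1 (log2 1.49, adjusted p = 0.255), Fgfr1 (-1.09, SE 0.302, adjusted p = 0.116), Fgfr2 (0.93, adjusted p = 0.227) and Igf1 (3.33, SE 1.31, adjusted p = 0.24). edgeR called none of the 9, and DESeq2 called Fgfr1 at -1.03 (adjusted p = 0.00675) and Igf1 (adjusted p = 0.0017). Fgfr1 was lower in NSCs than in IPCs in each of the 3 mice. Without technical replicate 2 of IPC mouse 2 its difference was -0.76 (limma adjusted p = 0.119). When only genes that kept a CLEAR value throughout were tested, Fgfr1 was the only member left, and it then passed at -1.09 (adjusted p = 0.0465). Igf1 passed in limma without mouse 1, at 5.00 (adjusted p = 0.036). As Igf1 was at 0 in all 9 IPC libraries, its difference could not be negative. Neither this call nor that of DESeq2 is read as a result.

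Per kilobase of exon, which allows genes to be compared, Fgfr1 led in both sorted populations of untreated mice, with 65.0 ± 20.6 normalized counts per kb in NSCs and 140 ± 51.9 in IPCs (SD, n = 3 mice each), followed by Igf1r with 42.6 ± 0.765 in NSCs and 36.3 ± 13.9 in IPCs. Vegfa (33.1 ± 25.7) and Fgf1 (30.0 ± 6.61) came next in NSCs, and Vegfa could not be parted from Igf1r within its spread. Egfr, Fgfr3, Fgf2 and Fgfr2 lay between 8.04 and 12.3 in NSCs, within their spread of one another, and Igf1 was lowest. In whole DG the order was another one: Fgfr3 (314 ± 43.2), Fgfr1 (262 ± 28.6) and Fgf1 (238 ± 17.5) led, and Igf1r (15.0 ± 5.90), Fgf2 (15.5 ± 2.36) and Egfr (13.8 ± 2.83) could not be parted.

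The technical replicates of a mouse, each a separate sort of 300 cells of which part of the lysate was amplified, varied widely for the low members. Fgfr1 and Igf1r were read in all 18 untreated sorted libraries, from 224 to 3917 and from 217 to 1643 normalized counts. Fgf1 was listed at 0 in 3 NSC and 4 IPC libraries and reached 506 in NSCs. Its SD on the log2 scale was 4.51 within NSC mice and 0.23 between their averages, so the averaged values hide a wide scatter between replicates, which are different cells of the same mouse. Fgfr3 had a median of 0.8 normalized counts over the IPC libraries, with 4 of 9 at 0, and 79.3 over the NSC libraries, with 1 of 9 at 0. Egfr was at 0 in 2 NSC and 4 IPC libraries. Technical replicate 2 of IPC mouse 2 had the highest IPC value for Vegfa (413), Fgfr1 (3917) and Igf1r (1643) and none for Fgf1, Fgf2, Fgfr3 and Egfr. CLEAR left a value for Fgfr1 in 9 of 9 NSC and 9 of 9 IPC libraries, for Igf1r in 8 and 7, for Vegfa in 6 and 4, for Fgf1 in 6 and 4, for Egfr in 6 and 3, for Fgfr3 in 3 and 3 and for Fgfr2 in 2 and 2. Fgf2 and Igf1 passed CLEAR in no sorted library of either experiment.

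**Figure D2:**
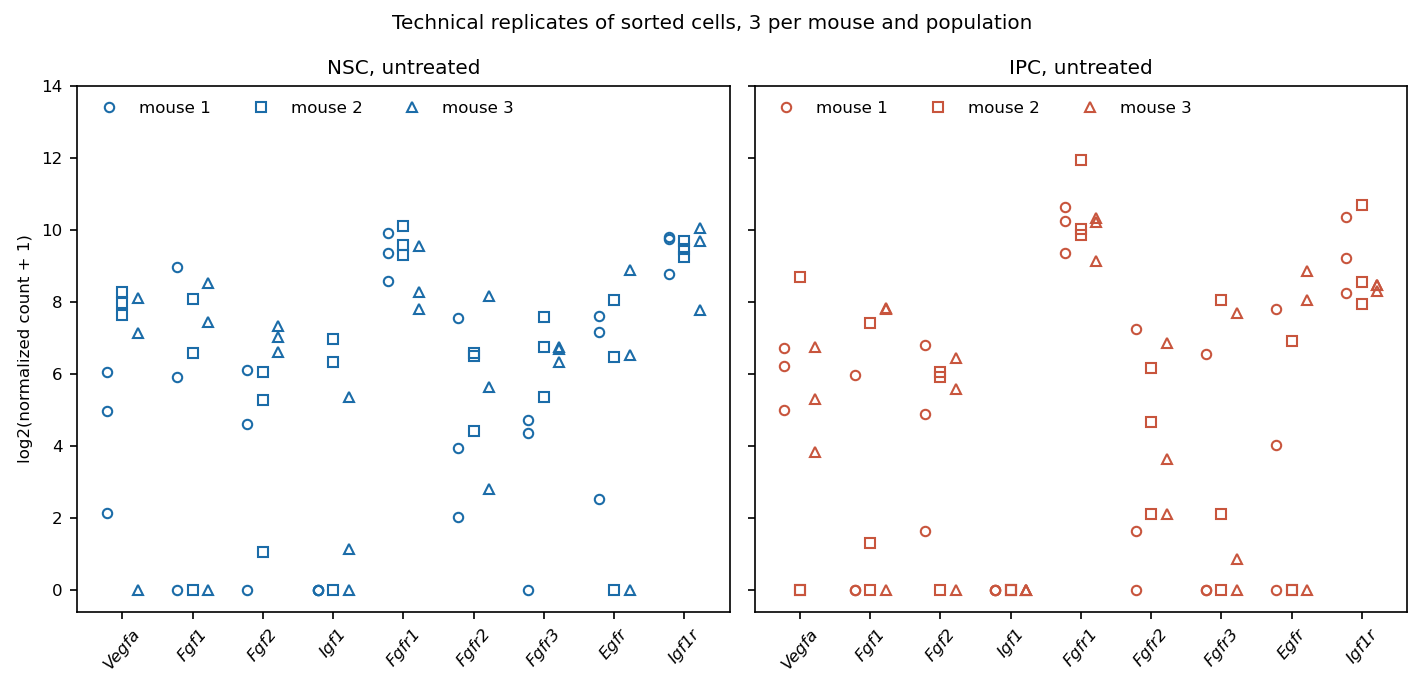
Normalized counts of the 9 genes in the 9 untreated NSC and 9 untreated IPC libraries, log2(normalized count + 1), 1 point per technical replicate and 1 symbol per mouse. Fgfr1 and Igf1r stay above 0 in all libraries, whereas replicates of the same mouse split between 0 and high values for Fgf1 and Egfr.

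In the LFPI experiment, over LFPI and sham mice together, 1 of 9 members passed between NSCs and whole DG, Igf1 (lower), where 51.9% of 18049 genes did (19.4% higher, 32.5% lower). Between IPCs and whole DG 2 of 9 passed, Vegfa and Igf1 (both lower), where 55.6% of all genes did (19.1% higher, 36.5% lower). In this experiment Igf1 reached the minimum mean only through whole DG. Its direction is thus fixed by that filter, and its calls are not read as a result. The members' median log2 fold change was -0.04 in NSCs and -0.76 in IPCs, beside -0.45 and -0.64 over all genes. Between NSCs and IPCs limma called none of the 9 (0.277% of all genes passed, 0.216% higher and 0.0609% lower), none had an unadjusted p under 0.05, and edgeR and DESeq2 called none.

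Igf1 had 0, 0 and 2.19 normalized counts in NSCs of LFPI mice and 0 and 0.94 in NSCs of sham mice. It had 0, 0 and 0 in IPCs of LFPI mice and 0, 0 and 27.9 in IPCs of sham mice, whereas whole DG had 73.8, 87.3 and 105 after LFPI and 58.8, 65.5 and 57.9 after sham. 8 of the 11 sorted libraries gave no read of it. The fitted log2 fold change of Igf1 over whole DG, -5.69 in NSCs and -5.40 in IPCs, depends on the pseudocount. As Igf1 reached the minimum mean only through whole DG, it is given here as a level alone. With 3 reads over the group as the floor, Igf1 was at least 134-fold lower in IPCs than in whole DG of LFPI mice. The microglia sums were 714 to 2302 normalized counts in these sorted libraries, against 4647 to 6297 in whole DG.

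Vegfa had 499, 468 and 322 normalized counts in NSCs of LFPI mice and 819 and 183 in those of sham mice, and 434, 316 and 371 in IPCs of LFPI mice and 856, 334 and 213 in those of sham mice. Whole DG had 729, 836 and 1336 after LFPI and 861, 464 and 719.6 after sham. Sham mouse 4 had the highest Vegfa of both sorted populations. Vegfa was 2.05-fold lower in IPCs than in whole DG (log2 -1.04, SE 0.385, limma adjusted p = 0.0297), and in NSCs its log2 fold change was -0.96 (adjusted p = 0.0581). The IPC call was lost without any 1 of mice 2, 3, 5, 6, 9, 10 and 12, with edgeR (log2 -0.80) and after rescaling (log2 -0.71). Without mouse 4, 6 members passed between IPCs and whole DG, all lower: Vegfa (-1.32), Fgf1 (-1.29), Fgf2 (-3.13), Fgfr1 (-1.08), Fgfr3 (-1.01) and Igf1 (-5.00). The direction of Igf1 is again fixed by the minimum mean. Over all genes, 55.6% passed in this comparison with every mouse kept, and the fits that left out 1 mouse called 9419 to 10181 genes. The count of 6 is thus not read as particular to these members.

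Fgfr2 had 1094, 149 and 443 normalized counts in NSCs of LFPI mice and 813 and 445 in those of sham mice. IPCs had 346, 758 and 191 after LFPI and 1850.3, 273 and 137 after sham, against 336, 472 and 554 in whole DG of LFPI mice and 439.7, 388 and 342 in whole DG of sham mice. The values of sorted cells spread on both sides of whole DG. Fgfr2 differed from whole DG by 0.27 on the log2 scale in NSCs (SE 0.639, limma adjusted p = 0.738) and -0.09 in IPCs (SE 0.603, adjusted p = 0.902), with an IPC sign that turned with rescaling, edgeR and DESeq2.

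Fgfr3 had 2262, 909 and 1507 normalized counts in NSCs of LFPI mice and 4282 and 1751 in those of sham mice. IPCs had 1554, 940.2 and 1193 after LFPI and 3088, 1107 and 529 after sham, against 1883, 2184 and 1993 in whole DG of LFPI mice and 1998, 1679.9 and 1881 in whole DG of sham mice. Mouse 4 again stood highest in both sorted populations. Fgfr3 differed from whole DG by 0.05 on the log2 scale in NSCs (SE 0.387, limma adjusted p = 0.922) and -0.67 in IPCs (SE 0.365, adjusted p = 0.123). Fgfr1 had 2789.8, 1400.1 and 2816 normalized counts in NSCs of LFPI mice and 3887 and 1267 in those of sham mice. IPCs had 1111, 1904 and 869 after LFPI and 3034, 1511 and 1859.6 after sham, and whole DG 2703, 3349 and 4226 after LFPI and 3009, 2638 and 2568 after sham. NSCs overlapped with whole DG, and IPCs lay below it except in mouse 4. Fgfr1 differed from whole DG by -0.45 on the log2 scale in NSCs (limma adjusted p = 0.235) and -0.94 in IPCs (SE 0.295, adjusted p = 0.0127), short of the fold threshold.

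Fgf1 had 579, 572 and 896 normalized counts in NSCs of LFPI mice and 716 and 336 in those of sham mice. IPCs had 561, 715 and 474 after LFPI and 933, 215 and 45.8 after sham, against 531, 538 and 589 in whole DG of LFPI mice and 639, 656 and 589 in whole DG of sham mice. The sham IPCs thus spanned more than any other group, with whole DG inside their range. Fgf1 differed from whole DG by -0.04 on the log2 scale in NSCs (SE 0.546, limma adjusted p = 0.955), of either sign across settings, and -0.76 in IPCs (SE 0.515, adjusted p = 0.215). Fgf2 had 97.8, 71.3 and 38.0 normalized counts in NSCs of LFPI mice and 91.3 and 138 in those of sham mice, and 39.4, 139 and 44.7 in IPCs of LFPI mice and 227, 0 and 70.1 in those of sham mice. Against whole DG its log2 fold change was -1.24 in NSCs (limma adjusted p = 0.334) and -2.34 in IPCs (SE 0.996, adjusted p = 0.054). The IPC value rests in part on mouse 5, with no read of Fgf2, and was -1.17 without it, where it passed (adjusted p = 0.0465).

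Igf1r had 1303, 1025 and 862 normalized counts in NSCs of LFPI mice and 1263 and 1347 in those of sham mice. IPCs had 951, 1167 and 703 after LFPI and 709, 1340.1 and 1005 after sham, against 921, 975 and 924 in whole DG of LFPI mice and 1071, 829.9 and 859 in whole DG of sham mice. NSCs of both sham mice lay above every whole DG library, while NSCs of LFPI mice and IPCs overlapped with whole DG. Igf1r differed from whole DG by 0.34 on the log2 scale in NSCs (SE 0.186, limma adjusted p = 0.138) and 0.04 in IPCs (SE 0.175, adjusted p = 0.859). Egfr, whose values stand with the injury comparison further on, differed from whole DG by 0.56 in NSCs (SE 0.268, limma adjusted p = 0.0896) and 0.84 in IPCs (SE 0.252, adjusted p = 0.00969), short of the fold threshold. The IPC value of Egfr passed after rescaling (1.17, adjusted p = 0.00103) and with edgeR (1.02, adjusted p = 0.00432). CLEAR left a value for Vegfa, Fgf1, Fgfr1, Fgfr2, Fgfr3 and Igf1r in all 5 NSC and 6 IPC libraries of this experiment and for Egfr in 5 and 5.

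**Figure D3:**
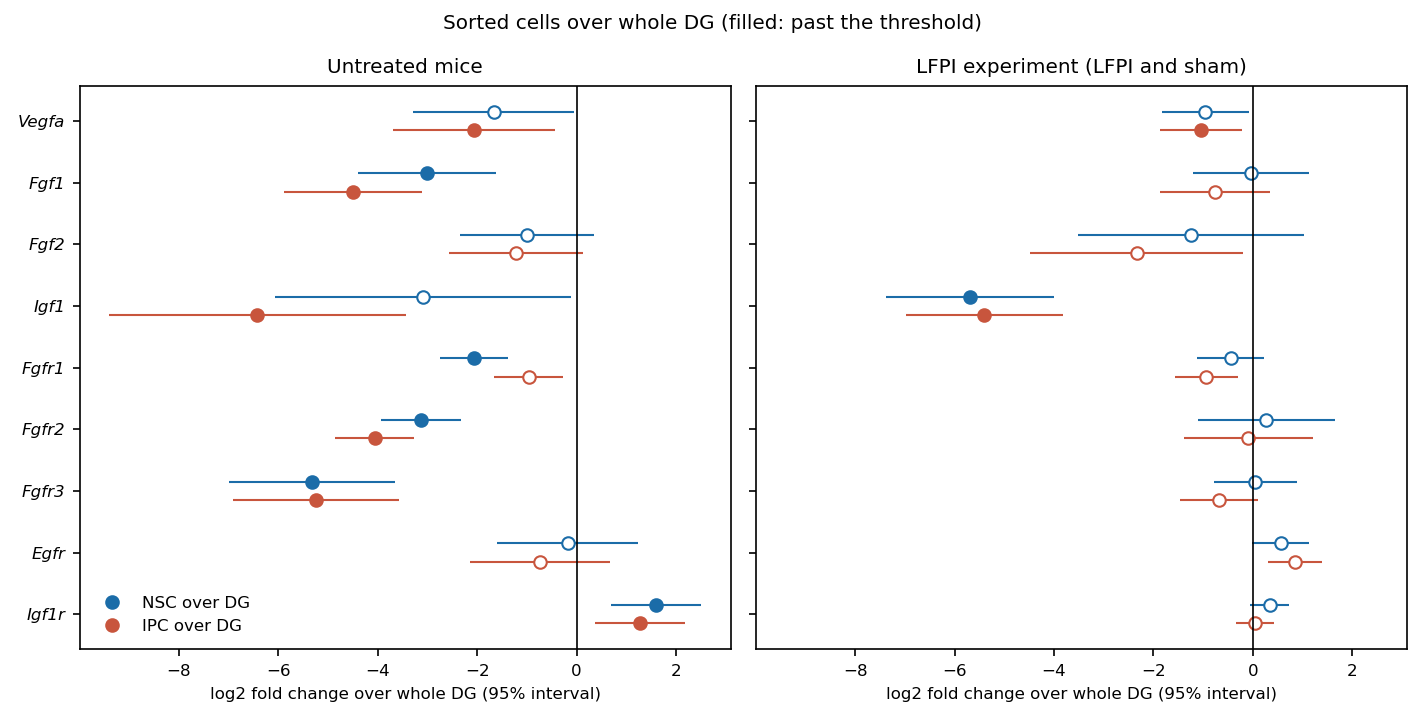
log2 fold change of NSCs and of IPCs over whole DG for each gene with its 95% interval, in untreated mice and in the LFPI experiment (LFPI and sham mice together), filled where past the threshold. In untreated mice 4 genes in NSCs and 5 in IPCs are past the threshold below 0 and Igf1r lies above it, and in the LFPI experiment only Igf1, and in IPCs Vegfa, is past it. Igf1 there reached the minimum mean only through whole DG, so its direction is fixed by that filter. In untreated IPCs, where Igf1 was at 0 in all libraries, its direction is fixed as well.

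The difference of sorted cells from whole DG was therefore compared between experiments. A joint limma fit of untreated and sham mice, chosen after the values had been seen, took the log2 fold change over whole DG within each experiment, since the experiments were normalized separately, and tested sham minus untreated. For NSCs 3 members passed, where 18.3% of 17954 genes did: Fgfr3 at 5.89 (SE 1.08, adjusted p = 0.00198), Fgfr2 at 3.77 (SE 1.01, adjusted p = 0.0184) and Fgfr1 at 1.76 (SE 0.577, adjusted p = 0.0463). For IPCs 2 passed, where 18.6% of all genes did: Fgfr3 at 4.65 (SE 1.02, adjusted p = 0.00551) and Fgfr2 at 4.15 (SE 0.952, adjusted p = 0.00738). Fgfr2 and Fgfr3 thus stood higher against whole DG in sham than in untreated mice in both populations, whereas Fgfr1 in IPCs, at 0.55 (SE 0.544, adjusted p = 0.535), did not pass. Fgf1 had differences of 2.65 in NSCs (adjusted p = 0.166) and 2.92 in IPCs (adjusted p = 0.103), and Igf1r of -1.08 (adjusted p = 0.176) and -1.17 (adjusted p = 0.119). For the difference between NSCs and IPCs limma called no member, where 0.407% of all genes passed, and edgeR called none. At an unadjusted p under 0.05 there was 1, Igf1 (-4.47, adjusted p = 0.457).

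The Fgfr1 call in NSCs was lost with edgeR (1.31, adjusted p = 0.132) and in 9 of the fits that left out 1 mouse, with the lowest value, 0.95 (adjusted p = 0.173), without sham mouse 4. The calls of Fgfr2 and Fgfr3 held in NSCs and IPCs under each alternative run. edgeR in addition called Igf1r lower in sham than in untreated mice in NSCs (-1.63, adjusted p = 0.0495) and IPCs (-1.70, adjusted p = 0.0291). Markers moved with these results. The sum over 8 astrocyte markers was 189946 to 278347 normalized counts in NSCs of sham mice and 20894 to 48058 in untreated NSCs, and 131990 to 320263 in IPCs of sham mice and 24461 to 43538 in untreated IPCs, while whole DG had 64445 to 71498 in sham mice and 72042 to 83890 in untreated mice. Against whole DG of their own experiment, 5 of 8 astrocyte markers were lower in untreated NSCs and none higher, and in the LFPI experiment 5 were higher and none lower. In IPCs the counts were 5 lower and none higher, and 4 higher and none lower. The 9 radial glia-like markers summed to 53748 to 103388 in NSCs of sham mice and 13051 to 25440 in untreated NSCs. Their part in the result was not tested. Surgery, the experiment, the pooling of 3 technical replicates in untreated mice and the separate normalization cannot be told apart from the difference between untreated and sham mice.

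Injury itself moved none of the members past the threshold. limma called no gene at all between LFPI and sham in NSCs (0 of 17274), IPCs (0 of 16970) or whole DG (0 of 17434), while 743, 752 and 3468 genes had an unadjusted p under 0.05. edgeR also called none, and DESeq2 called 247, 102 and 206 genes, of the members Fgf2 in whole DG alone. The tests of NSCs rest on 3 LFPI and 2 sham mice. Igf1 was under the minimum mean in NSCs and IPCs and was not tested there.

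Egfr was the member with the largest log2 fold change of the receptors in sorted cells after LFPI. NSCs had 393, 252 and 515 normalized counts after LFPI and 180.3 and 154 after sham, and IPCs 509, 394 and 333 after LFPI and 246, 159.9 and 298 after sham. In both populations each LFPI mouse lay above each sham mouse. The log2 fold change was 1.15 in NSCs (SE 0.495, 95% interval -0.03 to 2.33, limma p = 0.055 and adjusted p = 0.944) and 0.83 in IPCs (SE 0.434, adjusted p = 0.915), with no pass under any alternative run. Such a gap without overlap, LFPI higher, was present in 8.87% of all genes in NSCs and 4.68% in IPCs, and Egfr was the only member with one in either population. With LFPI lower, the shares of all genes were 10.2% in NSCs and 5.13% in IPCs, and no member was among them. Whole DG had 129.5, 209 and 225 after LFPI and 147, 162 and 160.5 after sham, which overlap (log2 0.22, adjusted p = 0.588). NSCs and IPCs came from the same mice, so the pair of populations is not independent.

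In whole DG Fgf2 had 193, 369 and 428 normalized counts after LFPI and 189, 119 and 97.4 after sham. The lowest LFPI mouse stood just above the highest sham mouse, mouse 10. The log2 fold change was 1.26 (SE 0.324, 95% interval 0.53 to 1.99, limma p = 0.0034 and adjusted p = 0.131). Fgf2 passed with DESeq2 (1.33, adjusted p = 0.00209) and without mouse 10 (1.53, adjusted p = 0.0186), where 533 genes passed in all. Igf1 in whole DG, with the values given above, was also higher in every LFPI mouse than in every sham mouse (log2 0.53, SE 0.21, adjusted p = 0.219), and Fgf1 lower (log2 -0.18, SE 0.114, adjusted p = 0.394), although its nearest mice differed by under 1 count. Of all genes in whole DG 9.03% had no overlap with LFPI higher and 13.9% with LFPI lower.

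Vegfa, the hypoxia-inducible ligand, had log2 fold changes of 0.12 in NSCs (95% interval -1.46 to 1.70), -0.09 in IPCs (-1.38 to 1.2) and 0.50 in whole DG (-0.10 to 1.1), none past the limma threshold (adjusted p = 0.993, 0.996 and 0.325). Fgfr1, Fgfr2, Fgfr3 and Igf1r overlapped between LFPI and sham in each population, and their log2 fold changes ran from -0.91 (Fgfr3 in NSCs, 95% interval -2.12 to 0.31) to 0.30 (Fgfr1 in whole DG, -0.05 to 0.66). The intervals reached past 1 log2 unit in at least 1 direction for all 8 members tested in NSCs and for 7 of 8 in IPCs, the exception being Igf1r (-0.90 to 0.70). In whole DG the interval of Igf1r was -0.24 to 0.32. The response of NSCs minus that of IPCs was tested as an interaction, and no member passed, each with an adjusted p of 1. Over all 17230 genes limma called none there, with 565 at an unadjusted p under 0.05, edgeR none and DESeq2 130, of which none was a member.

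**Figure D4:**
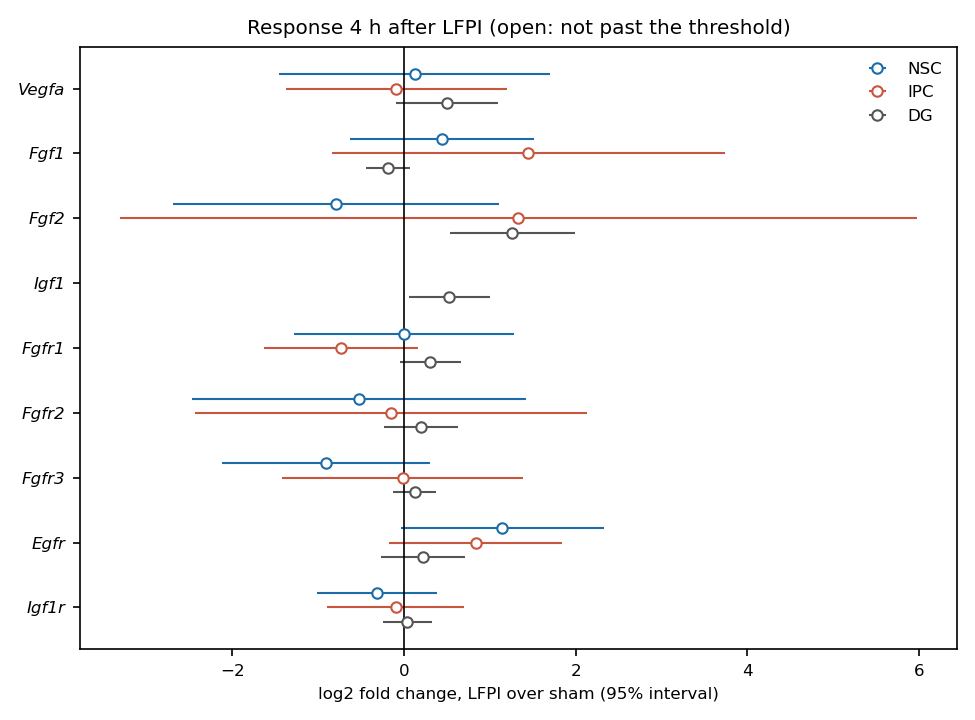
log2 fold change of LFPI over sham with its 95% interval for each gene in NSCs, IPCs and whole DG; open points did not pass the threshold, and Igf1 was tested in whole DG only. Egfr has the highest values in NSCs and Fgf2 in whole DG, and the intervals of sorted cells are wider than those of whole DG.

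Partners of the members were described from 8 lists of their pathways, with the shares of all genes given above as the background. In untreated NSCs 3 of 9 other VEGF family genes tested were higher than in whole DG and 2 lower, with Flt1, an endothelial VEGF receptor, at 4.51 (SE 0.397, limma adjusted p = 3.23e-05) and the coreceptors Nrp1 at -1.59 (adjusted p = 9.47e-05) and Nrp2 at -5.77 (adjusted p = 0.000397). Flt1 was also higher in IPCs (2.83, adjusted p = 0.000523). The median of the list was 1.12 in NSCs and -0.01 in IPCs. The endothelial marker sums given above moved with Flt1, and their part in it was not tested. In the LFPI experiment Flt1 (2.93 in NSCs and 2.27 in IPCs) and Kdr, the main signalling receptor of VEGF-A (2.37 and 1.81), were higher than in whole DG.

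Of 16 other FGF ligands 4 reached the minimum mean in untreated mice (Fgf5, Fgf9, Fgf10 and Fgf22) and 4 in the LFPI experiment (Fgf5, Fgf9, Fgf10 and Fgf20). Apart from Fgf9 in untreated mice, with a mean of 24.5 normalized counts for NSCs, 10.9 for IPCs and 246 for whole DG, they reached it only through whole DG, so that their lower values in sorted cells are fixed by the filter and are given as levels alone. Fgf10 was at 0 in every sorted mouse of both experiments and averaged 162 normalized counts in untreated whole DG. Among 8 coreceptors and adaptors 3 were lower in untreated NSCs and none higher. The 3 include Kl, which was tested only because its whole DG level lifted it over the minimum mean. The filter thus fixed the sign of Kl, and its call is not read as a result. The 3 also include Frs2, the adaptor that links FGF receptors to Ras (-2.48, limma adjusted p = 0.000268). Frs2 was also lower in the LFPI experiment (-2.03 in NSCs, adjusted p = 0.00242, and -3.02 in IPCs, adjusted p = 4.96e-05). Of 11 feedback and target genes of FGF and ERK signalling 3 were higher and 3 lower in untreated NSCs. The medians of these lists in untreated NSCs were -1.96 (Kl included) and -0.79, beside -0.64 over all genes. Etv5, a transcription factor induced by FGF, was at -2.56 (adjusted p = 0.0028) and the feedback inhibitor Spry4 at 1.21 (adjusted p = 0.00924). In the LFPI experiment the ERK phosphatase Dusp6 was higher in NSCs (1.46, adjusted p = 0.000102) and IPCs (1.28, adjusted p = 0.00017), and 5 of the 11 were lower in each.

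Of 6 EGF family ligands tested Hbegf was higher in untreated NSCs (1.25, limma adjusted p = 0.0417) and 3 were lower, among them Tgfa (-3.45, adjusted p = 0.0228). Another of the 3, Nrg3, had a mean of 2.58 normalized counts in untreated NSCs, 0.08 in IPCs and 92.6 in whole DG. Nrg3 reached the minimum mean only through whole DG, so its direction is fixed by the filter. Egf was near 0 in untreated NSCs (mean 0.12), against 30.5 in IPCs and 38.7 in whole DG. In the LFPI experiment Hbegf was higher in NSCs (1.58, adjusted p = 0.00418) and IPCs (1.14, adjusted p = 0.0184). Errfi1, an inhibitor of EGF receptor, was lower in untreated NSCs (-1.53, adjusted p = 0.0152) and IPCs (-1.40, adjusted p = 0.0233). Of 11 other IGF genes 3 were higher and 4 lower in untreated NSCs, with Insr, the insulin receptor and relative of Igf1r, at 1.47 (adjusted p = 0.0276), and the binding proteins Igfbp7 at 5.96 (adjusted p = 0.00458) and Igfbp5 at -4.89 (adjusted p = 0.000514). The 11 include Igfbp6, at 0 in untreated NSCs and IPCs and with a mean of 168 normalized counts in whole DG. Its direction is likewise fixed by the filter. Of 6 ERBB receptors and inhibitors 1 was lower in untreated NSCs and 3 in untreated IPCs, and of 7 hypoxia targets tested 4 were higher and 2 lower in NSCs, with the glucose transporter Slc2a1 at 2.38 (adjusted p = 0.00703), and 2 higher and 1 lower in IPCs. Slc2a1 is also an endothelial gene. Between untreated NSCs and IPCs 2 genes of all the lists passed: Flrt3, a binding partner of FGF receptors, was lower in NSCs (-1.19, adjusted p = 0.0156), and the hypoxia target Ndrg1 was higher (1.8, adjusted p = 0.0136). These populations came from the same mice, and both calls were lost with the mouse as a block, where no gene passed. Between LFPI and sham limma called no gene of any list in any population.

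Genes with the profile most like each member were found over 26 mouse averages and libraries, as the smallest root mean square difference of centred log2 values among 11453 genes, and are given as a description of libraries that share mice and normalization. The closest was Akap9 to Igf1r (0.311), followed by Rock1 (0.347) and Cbx1 (0.353). Fgfr1 was nearest to Cs (0.394), Slc35b4 (0.439) and Cggbp1 (0.458), and Egfr to Rsph3b (0.432), Ciapin1 (0.452) and Mageh1 (0.456). Fgfr3 was nearest to Slc22a17 (0.558), Ngef (0.715) and Efhd2 (0.72), and Fgfr2 to Paqr8 (0.666), Etv5 (0.695) and Slc9a8 (0.699). Vegfa was nearest to Fam160a2 (0.56), Slc1a2 (0.569) and Snd1 (0.578), and Fgf1 to Pbxip1 (0.576), the astrocyte gene Gfap (0.687) and 2900052N01Rik (0.687). For Fgf2 (Ddx54 0.763, Mylip 0.799 and Lysmd3 0.861) and Igf1 (Prkca 1.394, Ppp6r1 1.426 and Ptprj 1.428) the nearest genes were farther off.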

How the data were processed

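The deposited signal values are normalized counts. Per the study's methods the authors trimmed the reads, removed rRNA, mitochondrial and PhiX reads with HISAT2 (2.0.6 in the submitters' processing notes), aligned the rest to GRCm38, counted GENCODE genes without regard to strand and applied DESeq2 size factors. The notes also name CASAVA 1.8.2 and the human build GRCh38. In the filtered values the authors left a value where a gene passed CLEAR, except that whole DG of the LFPI experiment has one for every gene. Each unfiltered table has 50600 rows, of which 678 with a repeated symbol (no member) were left out, leaving 49922 genes. 1 column of unfiltered LFPI values had no matching sample and was not used, and as the title line there is 1 name short, columns were matched by library name. All values were whole multiples of 1 step within 0.05, so reads were recovered for edgeR and DESeq2.

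Groups were assigned from the labels. Comparisons used limma 3.58.1 (two-sided, variance trend, pseudocount 1, mean of at least 10) in R 4.3.3, with edgeR 4.0.16 and DESeq2 1.42.0 on recovered reads as alternatives, and Python 3.11.15 with numpy 2.4.6, pandas 2.3.3 and matplotlib 3.10.9. Other alternatives were pseudocounts of 0.5 and 10, CLEAR values only, no minimum mean, no trend, rescaling to 1 total, adjusted p alone, 1 spread over 6 groups, the mouse as a block, each mouse left out and the outlying IPC library left out. NSCs and IPCs of a number come from the same animal, and the deviations of the pairs from their group means correlated at 0.023 to 0.057 in untreated mice and 0.052 to 0.107 in the LFPI experiment. The fits were run on simulated counts only for plain comparisons of a pair of groups, with a spread set in advance that the sorted cells may exceed. The joint fit of sham and untreated mice and the interaction were not simulated. Coordinates and exon lengths are those of GENCODE M21 on GRCm38.

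All 9 members are given against whole DG in each experiment. In the other comparisons, members not named were not past the limma threshold. Of each list, up to 3 genes past the threshold with the highest mean are named (1 where none passed), and the 3 genes most like each member in profile. Members and lists were chosen with earlier results of these data known, and sham minus untreated was added after the values had been seen. Floors cover counting error only.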

Additional observations from a re-analysis of the deposited data

Results flagged for a closer look

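In untreated IPCs 1 of 9 libraries, technical replicate 2 of mouse 2, lay far from the others for Vegfa, with 413.0 normalized counts, and for Fgfr1, with 3916.9. Vegfa was at 0 in the other replicates of that mouse, and Fgfr1 was at 1037 and 937. Among 17 groups of libraries tested in this way 2 stood out, and chance alone gives about 1 in 20. The groups share libraries and both values come from the same library, so they do not count as independent.

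The difference of sorted cells from whole DG was not the same in sham as in untreated mice for Fgfr2 and Fgfr3 in both populations and for Fgfr1 in NSCs. In NSCs the log2 difference between the experiments was 1.76 for Fgfr1, 3.77 for Fgfr2 and 5.89 for Fgfr3, and in IPCs it was 4.15 for Fgfr2 and 4.65 for Fgfr3, each tested as the difference itself. Fgfr1 in IPCs, at 0.55 (limma adjusted p = 0.535), did not pass, and the Fgfr1 call in NSCs was lost with edgeR (1.31, adjusted p = 0.132) and without sham mouse 4 (0.95). The summed astrocyte markers of the sorted cells were higher in the same direction, and their part in the difference was not tested.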

How the results depend on the processing

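Of the results of single members under the alternatives, 821 kept their direction and side of the threshold, and 7 lost and 14 gained a call. In the fits that left out 1 mouse, 805 kept both, 23 lost and 21 gained a call. Signs turned in 25 and 43 cases, none with a call in either setting. The numbers of members called that moved by over 1.5 times are these. With CLEAR values in every library, 1 member passed between untreated NSCs and IPCs (0 otherwise), 1 between untreated NSCs and whole DG (5), 0 between untreated IPCs and whole DG (6), 0 and 1 between NSCs and IPCs of the LFPI experiment and whole DG (1 and 2), where fewer genes were tested. DESeq2 gave 2 between untreated NSCs and IPCs and 1 between LFPI and sham in whole DG (0 each), and the adjusted p alone gave 4 between IPCs and whole DG in the LFPI experiment. Leaving out 1 mouse gave 0 to 1 between untreated NSCs and IPCs, 5 to 7 and 4 to 6 between untreated NSCs and IPCs and whole DG, 1 to 2 and 1 to 6 for the same in the LFPI experiment, 0 to 1 between LFPI and sham in whole DG, and 2 to 4 for IPCs over whole DG, sham minus untreated. For other causes than fewer genes tested, the cause was not tested. With the mouse as a block 0 members passed between NSCs and IPCs in untreated mice, in the LFPI experiment and in the interaction, so the block changed no call of a member, while the sign of Fgf2 turned in the LFPI experiment (-0.067) and in the interaction (0.21).

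Over all genes the counts moved too. NSCs against untreated IPCs gave 288 genes, 1141 with DESeq2, 134 with CLEAR values, 489 without the outlying library and 0 with the block, and in the LFPI experiment 50, 633 with DESeq2, 21 with edgeR and 0 with the block. LFPI over sham gave 30 in NSCs and 76 in IPCs with 1 spread over 6 groups and 29 and 38 without the trend. Without mouse 10, whole DG gave 533. Leaving out 1 mouse gave 145 to 542 genes between untreated NSCs and IPCs. Against whole DG such fits gave 6132 to 7983 genes for untreated NSCs and 5877 to 7728 for untreated IPCs. In the LFPI experiment they gave 8768 to 9566 for NSCs and 9419 to 10181 for IPCs. The member counts given above for these fits are to be read beside these ranges.

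Signs that turned, all without a call, were as follows. In untreated mice Fgfr3 in NSCs over IPCs was 0.079 with edgeR and 0.091 with DESeq2. Egfr in NSCs over whole DG was 0.52 after rescaling, 0.19 with edgeR and 0.062 with DESeq2, and in IPCs over whole DG 0.008 with edgeR. In the LFPI experiment Fgf1 in NSCs over whole DG was 0.24 after rescaling and 0.17 with edgeR, and Fgfr2 in IPCs over whole DG was 0.23 after rescaling, 0.60 with edgeR and 0.38 with DESeq2. For LFPI over sham in NSCs Fgfr1 was -0.013 after rescaling, -0.13 with edgeR and -0.14 with DESeq2, and Vegfa -0.21 with both. In IPCs Fgf2 was -0.40 with edgeR and -0.41 with DESeq2. In the interaction Fgfr2 was 0.62 with edgeR and 0.63 with DESeq2. For sham minus untreated with edgeR Fgf2 was -0.18 and Egfr -0.22 in NSCs over whole DG, and Fgf2 0.19 in IPCs over whole DG.

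Without technical replicate 2 of IPC mouse 2, NSCs over untreated IPCs gave Vegfa 2.77 and Igf1r 0.75. Leaving out 1 mouse, signs turned within these ranges. For NSCs over IPCs in untreated mice they were Fgf2 -0.43 to 0.63, Fgfr3 -0.34 to 0.40, Igf1r -0.045 to 0.52 and Vegfa -0.093 to 1.13, and in the LFPI experiment Fgf2 -0.067 to 2.04, Fgfr2 -0.008 to 0.99, Igf1 -0.70 to 0.28 and Vegfa -0.18 to 0.40. For NSCs over whole DG in the LFPI experiment they were Fgf1 -0.31 to 0.23, Fgfr2 -0.078 to 0.64 and Fgfr3 -0.27 to 0.37, and for IPCs over whole DG Fgfr2 -0.63 to 0.30 and Igf1r -0.072 to 0.16. For LFPI over sham they were in NSCs Fgf1 -0.10 to 0.99, Fgfr1 -0.81 to 0.81, Fgfr2 -1.22 to 0.21 and Vegfa -0.96 to 1.198. In IPCs they were Fgf2 -0.998 to 2.92, Fgfr2 -0.95 to 0.93, Fgfr3 -0.62 to 0.65, Igf1r -0.33 to 0.13 and Vegfa -0.53 to 0.47, and in whole DG Igf1r -0.029 to 0.15. In the interaction they were Egfr -0.066 to 0.57, Fgf2 -4.00 to 0.21, Fgfr2 -1.11 to 0.88 and Vegfa -0.43 to 0.73, and for sham minus untreated Vegfa -0.17 to 1.99 in NSCs over whole DG and Fgf2 -2.74 to 1.18 in IPCs over whole DG. Igf1 and Fgf2 gave no read in some sorted libraries, although all libraries held at least 9292264 reads.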
